A study of Mus musculus with 11 samples.

Results

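The genes described here are 10 genes of the integrated stress response and of the unfolded protein response of the endoplasmic reticulum (ER), namely Atf4, Ddit3, Asns, Trib3, Ppp1r15a, Hspa5, Xbp1, Herpud1, Dnajb9, and Hsp90b1. They were chosen by symbol from a count table of 12647 genes, all 10 were found, and all 10 were among the 12625 genes that passed the filter on low counts. They were followed in LSKs, the Lin-Sca1+Kit+ fraction of bone marrow that holds hematopoietic stem cells and multipotent progenitors, from 3 genotypes of mice on a C57BL/6 background, with 3 RNA-seq libraries for each genotype. The p53+/+ mice carry a humanized knock-in of p53 (HUPKI), in which mouse p53 is largely replaced by the human sequence under the mouse promoter. The p53R248W/+ mice carry 1 HUPKI allele with the R248W mutation of the DNA-binding domain as a germline knock-in, so that a normal allele is present beside the mutant. The p53-/- mice lack p53, and whether their background holds a HUPKI allele is not given in the sources used here. All mice were described as tumor free and 8 to 12 weeks old, and no group was treated. The labels do not say that each library came from its own animal, so p-values measure the spread between these libraries, which may be technical. In the labels, p53+/+ and p53R248W/+ libraries have tags that are alike by replicate number, and p53-/- libraries have tags of another form. Whether the p53-/- libraries were handled apart is not given, so handling and genotype cannot be told apart for them.

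Cells that are short of amino acids, are infected, or hold unfolded proteins in the ER phosphorylate the initiation factor eIF2. This slows translation in general and favors translation of the Atf4 mRNA, so that ATF4 protein can rise without a change in its mRNA. ATF4 activates Asns, Trib3, and Ddit3, and Ppp1r15a encodes the phosphatase subunit that reverses the phosphorylation. In the ER, the sensors IRE1 and ATF6 act through spliced Xbp1 mRNA and cleaved ATF6 to raise chaperones such as Hspa5 and Hsp90b1 and degradation factors such as Herpud1 and Dnajb9. Hematopoietic stem cells are known to make protein slowly and to be sensitive to ER stress. RNA-seq counts per gene measure neither translation nor eIF2 phosphorylation, and they do not separate spliced from unspliced Xbp1.

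Promoter stretches are shown first, because the windows of 3 of the 5 ER genes (Hspa5, Hsp90b1, and Herpud1) hold an exact match to a known ER stress element. The windows of the other ER genes hold no exact match, which does not exclude an element with other letters or outside the window. The sequences are from the RefSeq promoter table of GRCm38.p6, which spans 250 bases before to 50 bases after each annotated start and holds all 10 genes. They lie just before the first exon on the gene's strand, and positions are counted from the annotated start. Capitals mark an exact match on either strand to the ER stress element ERSE (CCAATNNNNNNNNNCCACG), to ERSE-II (ATTGGNCCACG), or to the CARE (C/EBP-ATF response element, TGATGNAA) to which ATF4 binds with a C/EBP partner.
Hspa5, chr2:34771990-34772089, plus strand, -100 to -1: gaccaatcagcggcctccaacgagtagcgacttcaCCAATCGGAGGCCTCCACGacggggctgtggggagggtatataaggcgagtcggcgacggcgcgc
Hsp90b1, chr10:86705525-86705674, minus strand, -230 to -81: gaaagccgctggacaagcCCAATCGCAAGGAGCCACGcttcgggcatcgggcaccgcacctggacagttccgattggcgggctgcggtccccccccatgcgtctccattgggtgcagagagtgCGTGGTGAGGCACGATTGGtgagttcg
Herpud1, chr8:94386304-94386403, plus strand, -125 to -26: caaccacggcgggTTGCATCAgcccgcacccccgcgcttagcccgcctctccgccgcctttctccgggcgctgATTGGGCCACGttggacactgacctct
Dnajb9, chr12:44210069-44210168, minus strand, -100 to -1: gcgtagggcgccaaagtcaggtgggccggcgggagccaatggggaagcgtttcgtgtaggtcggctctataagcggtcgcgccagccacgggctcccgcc

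Hspa5 held 1 ERSE, from -65 to -47. Hsp90b1 held 2, from -212 to -194 and, on the other strand, from -107 to -89. Herpud1 held an ERSE-II from -52 to -42 and a CARE on the other strand from -112 to -105. The Dnajb9 window had no complete match and is shown because this gene rose most among the ER genes in p53-/- LSKs. Of 32841 promoter windows, 0.119% held an ERSE, 0.0365% an ERSE-II, and 3.97% a CARE.

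Of the genes downstream of ATF4, Asns had a CARE just before the start and Trib3 had one within the first exon. In Ppp1r15a the capitals mark a cyclic AMP response element (CRE, TGACGTCA), which 1.79% of all windows held.
Asns, chr6:7693210-7693289, minus strand, -80 to -1: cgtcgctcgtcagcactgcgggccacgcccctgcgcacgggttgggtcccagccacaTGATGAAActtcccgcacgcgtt
Trib3, chr2:152344031-152344060, minus strand, 1 to 30: agattagctcaggtTTACATCAgccgggcg
Ppp1r15a, chr7:45526269-45526348, minus strand, -80 to -1: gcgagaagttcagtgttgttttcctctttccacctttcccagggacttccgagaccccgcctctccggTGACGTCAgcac
The windows of Atf4, Ddit3, Xbp1, and Dnajb9 held none of these elements and no UPRE (TGACGTGG, 0.676% of windows). Atf4 and Dnajb9 each held the short core CCACG, which is part of ERSE and ERSE-II and stood in 32.8% of windows. A match or its absence describes these letters only and not binding of a factor.

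**Figure D1:**
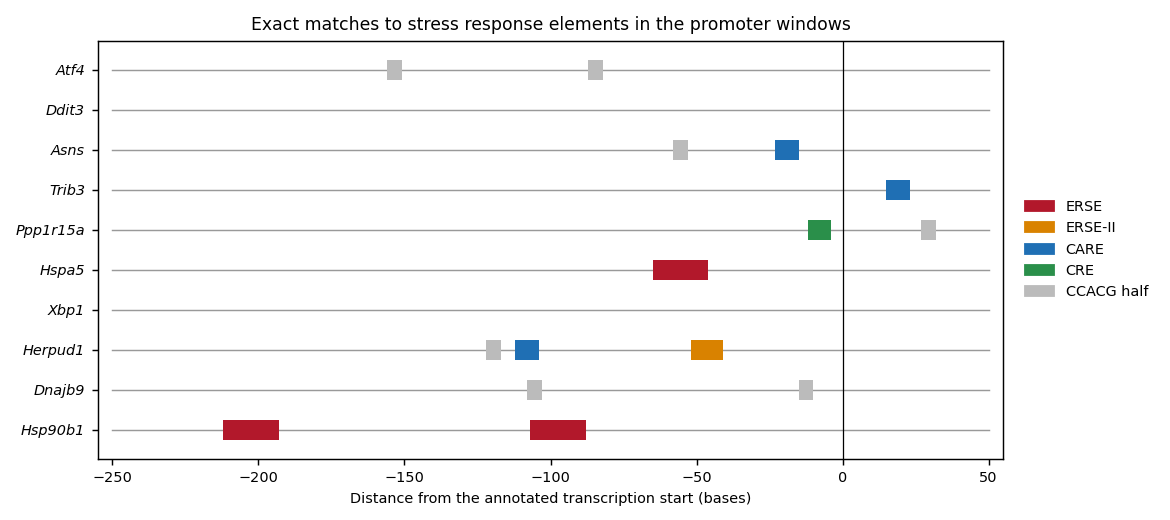
Position of exact matches to 4 response elements and to the CCACG core in the promoter window of each gene. The x axis is the distance from the annotated transcription start in bases, each row is a gene, and colors give the element. ERSE or ERSE-II matches are in the rows of Hspa5, Herpud1, and Hsp90b1, while Ddit3 and Xbp1 have no match.

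The libraries held 18021375 to 29750702 counts on genes. Trp53 was read at 125, 207, and 376 CPM (counts scaled to library size, with TMM factors) in p53+/+ libraries, at 219, 241, and 235 in p53R248W/+ libraries, and at 129, 127, and 112 in p53-/- libraries. The p53+/+ and p53-/- libraries overlapped, with a log2 fold change of -0.94 (adjusted p = 0.0953, edgeR), and which part of the gene is deleted is not given in the sources used here, so the count did not check the labels. The markers Kit (427 to 861 CPM), Ly6a, which encodes Sca1 (150 to 444 CPM), and Cd34 were present in every library. Reads of 4 Y-linked genes were found in p53+/+ replicate 2 and in p53R248W/+ replicates 2 and 3 (1450 to 4036 counts), and the other 6 libraries held at most 6. Of these libraries, replicate 2 of both genotypes also held Xist, and these libraries held most S100a8, a neutrophil gene (799 and 548 CPM, against at most 44.3 in the other libraries).

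Loss of p53 was examined first, by comparing p53-/- with p53+/+ LSKs. The mRNA of Atf4 was lower in p53-/- LSKs, Ppp1r15a was lower, and Dnajb9 was higher, while Ddit3, Asns, and Hspa5 overlapped between these genotypes. Thus 3 of 10 genes passed an adjusted p below 0.05, 1 of them higher and 2 lower. Of all genes tested, 1.25% were higher and 2.25% lower at this threshold. The p53-/- libraries did not overlap the p53+/+ libraries in 7 of the 10 genes, against 31.4% of all genes. The same 7 genes had an adjusted p below 0.1, against 10.4% of all genes. The 10 genes were chosen with earlier results of these data known, so these shares do not test the set. In these sorted bulk cells, fewer cells of a type and less RNA per cell cannot be told apart.

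Atf4 (NCBI gene 11911, chromosome 15, 80255184 to 80257545) encodes the transcription factor at the center of the integrated stress response. It was read at 117, 116, and 144 CPM in p53+/+ libraries, at 119, 104, and 112 in p53R248W/+ libraries, and at 43.4, 48.4, and 41.3 in p53-/- libraries. The highest p53-/- library was below the lowest library of either other genotype, and p53+/+ and p53R248W/+ libraries overlapped. The mean was 44.4 ± 3.69 CPM in p53-/- and 126 ± 16.2 CPM in p53+/+ LSKs (SD, n = 3 each), which is 2.83-fold lower. The log2 fold change was -1.50 with a SE of 0.16 (adjusted p = 0.00203, edgeR), and by its p-value Atf4 stood at rank 4 of the 12625 genes. Atf4 also varied little between libraries of 1 genotype, with a SD of 0.137 on the log2 scale against a median of 0.272 over 9678 genes.

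Ppp1r15a (GADD34), whose product brings protein phosphatase 1 to phosphorylated eIF2, was also lower. It was read at 174, 120, and 87.7 CPM in p53+/+ libraries, at 121, 74.3, and 132 in p53R248W/+ libraries, and at 37.7, 56.3, and 66.1 in p53-/- libraries. All p53-/- libraries were below the other 6. The log2 fold change between p53-/- and p53+/+ was -1.25 with a SE of 0.30 (adjusted p = 0.0431, edgeR). This call was lost by limma-voom and without p53+/+ replicate 1, 2, or 3, p53R248W/+ replicate 3, or p53-/- replicate 1, 2, or 3 in turn, with adjusted p-values up to 0.134 (edgeR and limma-voom).

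For Trib3, Asns, and Ddit3, which ATF4 is known to activate, no fall passed the test. Trib3, a pseudokinase that restrains this response, was read at 13.8, 12.2, and 5.58 CPM in p53+/+, at 13.9, 7.32, and 9.14 in p53R248W/+, and at 22.9, 34.6, and 21.2 in p53-/- libraries. All 3 p53-/- libraries were the highest of the 9, and the log2 fold change of 1.32 (SE 0.36) missed the threshold (adjusted p = 0.0619, edgeR), as it did by limma-voom (adjusted p = 0.0604) but not by DESeq2 (adjusted p = 0.00635). Trib3 reads per Atf4 read were 0.0387 to 0.118 in p53+/+, 0.0704 to 0.117 in p53R248W/+, and 0.514 to 0.714 in p53-/- libraries.

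Asns, asparagine synthetase, was read at 31.2, 30.03, and 69.9 CPM in p53+/+ libraries, at 44.3, 42.3, and 20.4 in p53R248W/+ libraries, and at 52.7, 42.9, and 53.4 in p53-/- libraries. The genotypes overlapped, and p53+/+ replicate 3 was the highest library. The log2 fold change between p53-/- and p53+/+ was 0.18, with a 95% interval of -0.58 to 0.95 (adjusted p = 0.787, edgeR). Ddit3 (CHOP), a transcription factor of the C/EBP family that can drive apoptosis under ER stress, was read at 30.3, 15.5, and 12.5 CPM in p53+/+, at 40.1, 17.8, and 20.7 in p53R248W/+, and at 11.53, 21.3, and 10.9 in p53-/- libraries. Replicate 1 was the highest library in both p53+/+ and p53R248W/+ LSKs, and all 3 genotypes overlapped. The log2 fold change between p53-/- and p53+/+ was -0.41, with an interval of -1.30 to 0.47 (adjusted p = 0.574, edgeR). Asns and Ddit3 changed sign in p53-/- against p53+/+ when p53+/+ replicate 1 was left out, and Asns also without p53+/+ replicate 2. Both genes varied much between libraries of 1 genotype, with a SD of 0.546 for Asns and 0.608 for Ddit3 on the log2 scale.

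**Figure D2:**
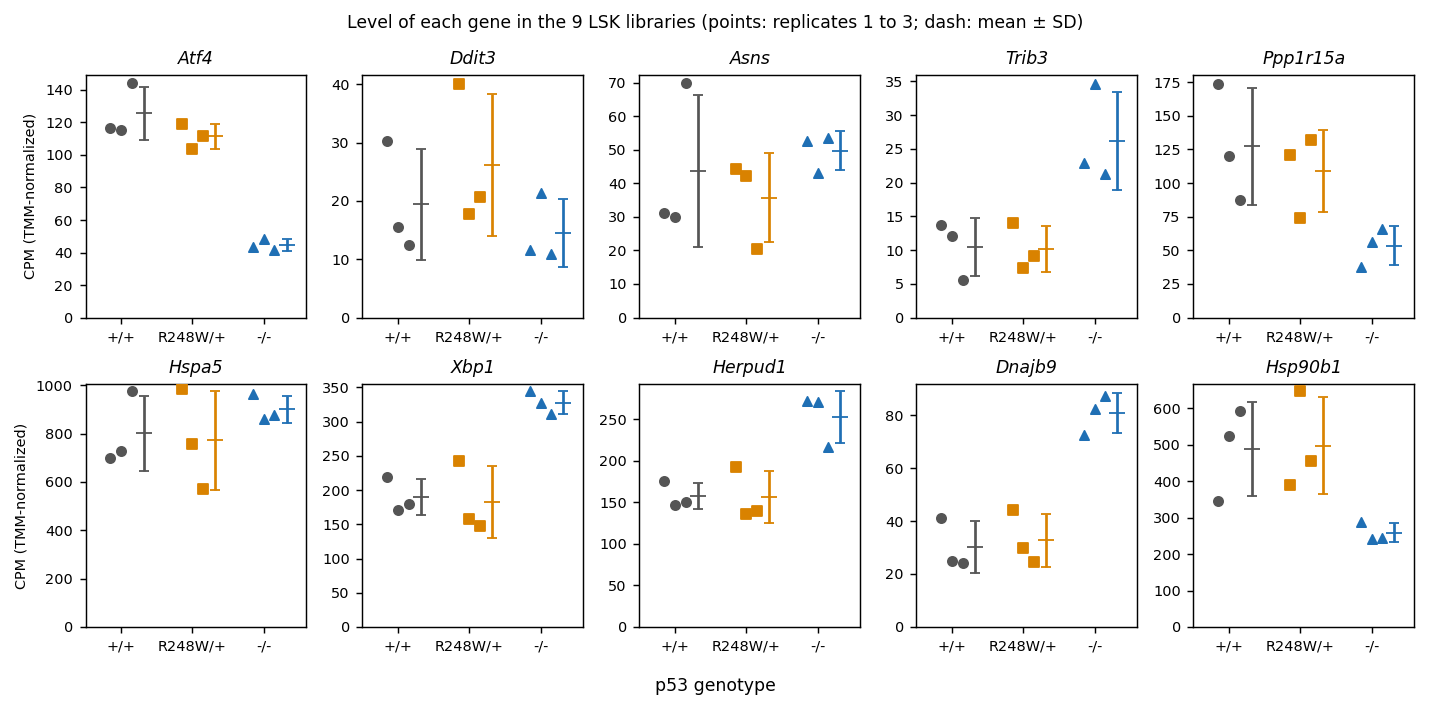
Level of each of the 10 genes in every library. The y axis is CPM with TMM factors on a linear scale from 0, the x axis is the p53 genotype, points are replicates 1 to 3 from left to right, and the dash with bars is the mean ± SD (n = 3). The p53-/- points of Atf4, Ppp1r15a, and Hsp90b1 lie below all others, and those of Trib3, Xbp1, Herpud1, and Dnajb9 lie above all others.

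Among the ER genes, Dnajb9, Xbp1, and Herpud1 were highest in p53-/- libraries, and Hsp90b1 was lowest there. Dnajb9 (ERdj4, chromosome 12, 44205897 to 44210068) encodes an ER-resident cochaperone of BiP that binds misfolded proteins and restrains IRE1. It was read at 41.3, 25.1, and 24.2 CPM in p53+/+, at 44.0, 29.7, and 24.4 in p53R248W/+, and at 72.4, 82.5, and 87.4 in p53-/- libraries. Every p53-/- library was above the other 6. The means were 80.7 ± 7.65 CPM in p53-/- and 30.2 ± 9.64 CPM in p53+/+ LSKs (SD, n = 3 each), and the log2 fold change was 1.42 with a SE of 0.26 (adjusted p = 0.0214, edgeR). The call was lost without p53+/+ replicate 2 or 3 or p53-/- replicate 1, 2, or 3 in turn, with adjusted p-values up to 0.119 (edgeR).

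Xbp1, whose spliced mRNA encodes the transcription factor downstream of IRE1, was read at 219, 171, and 179 CPM in p53+/+ libraries, at 243, 157, and 148 in p53R248W/+ libraries, and at 344, 328, and 311 in p53-/- libraries. Herpud1, an ER membrane protein that organizes the degradation of ER proteins, was read at 175, 147, and 151 CPM in p53+/+, at 193, 137, and 140 in p53R248W/+, and at 272, 271, and 216 in p53-/- libraries. Neither gene overlapped between p53-/- and the other genotypes. The log2 fold changes between p53-/- and p53+/+ were 0.79 for Xbp1 (adjusted p = 0.0537, edgeR) and 0.68 for Herpud1 (adjusted p = 0.0600, edgeR), so both missed the threshold. By limma-voom both missed it as well (adjusted p = 0.0562 and 0.0639), and by DESeq2 both passed (adjusted p = 0.00539 and 0.00849).

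Hsp90b1 (GRP94, chromosome 10, 86690841 to 86705444), the ER paralog of HSP90 that folds integrins and Toll-like receptors, went the other way. It was read at 345, 524, and 594 CPM in p53+/+ libraries, at 391, 647, and 457 in p53R248W/+ libraries, and at 290, 242, and 245 in p53-/- libraries. The p53-/- libraries were the 3 lowest, although p53+/+ replicate 1 was close to them. The log2 fold change was -0.91 with a SE of 0.24 (adjusted p = 0.0535, edgeR), which passed by DESeq2 (adjusted p = 0.00475) and not by limma-voom (adjusted p = 0.0628). Hspa5 (BiP or GRP78), the major ER chaperone of the HSP70 family, was read at 698, 726, and 978 CPM in p53+/+, at 985, 758, and 573 in p53R248W/+, and at 963, 859, and 879 in p53-/- libraries. The genotypes overlapped, with a log2 fold change of 0.17 and an interval of -0.29 to 0.62 (adjusted p = 0.665, edgeR). The ratio of Hspa5 to Hsp90b1 CPM was 3.32 to 3.59 in p53-/- libraries, 1.39 to 2.02 in p53+/+ libraries, and 1.17 to 2.52 in p53R248W/+ libraries. Thus the 2 chaperones, both with an ERSE, were not in the same proportion in p53-/- LSKs as in the other genotypes. This ratio, like that of Trib3 to Atf4, was chosen after the values were seen and was not tested.

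Across all genes, 49 had an ERSE or ERSE-II in the promoter window, of which 26 were tested. In p53-/- against p53+/+ LSKs 11 of the 26 had a log2 fold change above 0 and 15 below, with a median of -0.0957, against a median of -0.00125 over all genes tested. Of the 26 genes, 0 passed the threshold in edgeR, 4 had an unadjusted p below 0.05, 4 passed by DESeq2, and 0 by limma-voom. Over all genes the shares were 23.4% with an unadjusted p below 0.05, 12.3% by DESeq2, and 2.35% by limma-voom, so the counts are near or below the background. The motif letters were taken from general knowledge of these elements, and Hspa5, Hsp90b1, and Herpud1 are among the 26 genes.

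The second comparison, of p53R248W/+ with p53+/+ LSKs, asks whether the heterozygous mutant moved these genes. Of the 10 genes 0 passed an adjusted p below 0.05 in edgeR, 0 had an unadjusted p below 0.05, and 0 passed by DESeq2 or limma-voom. At the same threshold 0.00792% of all genes were higher and 0% lower in edgeR, 0.0475% passed by DESeq2, and 0.00792% by limma-voom, and 0.958% had an unadjusted p below 0.05. In 0 of 10 genes did the libraries separate, against 5.04% of all genes. The log2 fold changes ran from -0.29 for Asns to 0.43 for Ddit3, with a median of -0.0512. The intervals still allow differences of some size. For Atf4 the log2 fold change was -0.17 with a 95% interval of -0.51 to 0.17, for Xbp1 -0.05 with -0.50 to 0.39, for Dnajb9 0.12 with -0.45 to 0.68, and for Ddit3 0.43 with -0.45 to 1.31. In p53R248W/+ LSKs, replicate 1 held the most Atf4, Ddit3, Asns, Trib3, Hspa5, Xbp1, Herpud1, and Dnajb9 of the 3 libraries, and the least Hsp90b1.

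The third comparison was made between p53R248W/+ and p53-/- LSKs, and it shares the p53-/- libraries with the first. Atf4 was higher in p53R248W/+ LSKs by 1.33 on the log2 scale (SE 0.16, adjusted p = 0.00252, edgeR), which is 2.51-fold. Dnajb9 was lower by a log2 fold change of -1.30 (adjusted p = 0.0258, edgeR) and Xbp1 by -0.84 (adjusted p = 0.0457, edgeR). The other genes without overlap were Hsp90b1 with 0.94 (adjusted p = 0.0507, edgeR), Trib3 with -1.37 (adjusted p = 0.0601), Herpud1 with -0.69 (adjusted p = 0.0604), and Ppp1r15a with 1.03 (adjusted p = 0.0747). Thus 1 gene was higher and 2 were lower, against 2.34% and 1.1% of all genes. In 7 of 10 genes the libraries did not overlap, against 24.2% of all genes, which again does not test a set chosen with earlier results known. The call for Dnajb9 was lost without p53R248W/+ replicate 2 or 3, without any 1 p53-/- library, and with a Y-linked covariate in the fit. Xbp1 kept its call in 7 of 18 alternatives, with adjusted p-values up to 0.177 (edgeR, DESeq2, and limma-voom).

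**Figure D3:**
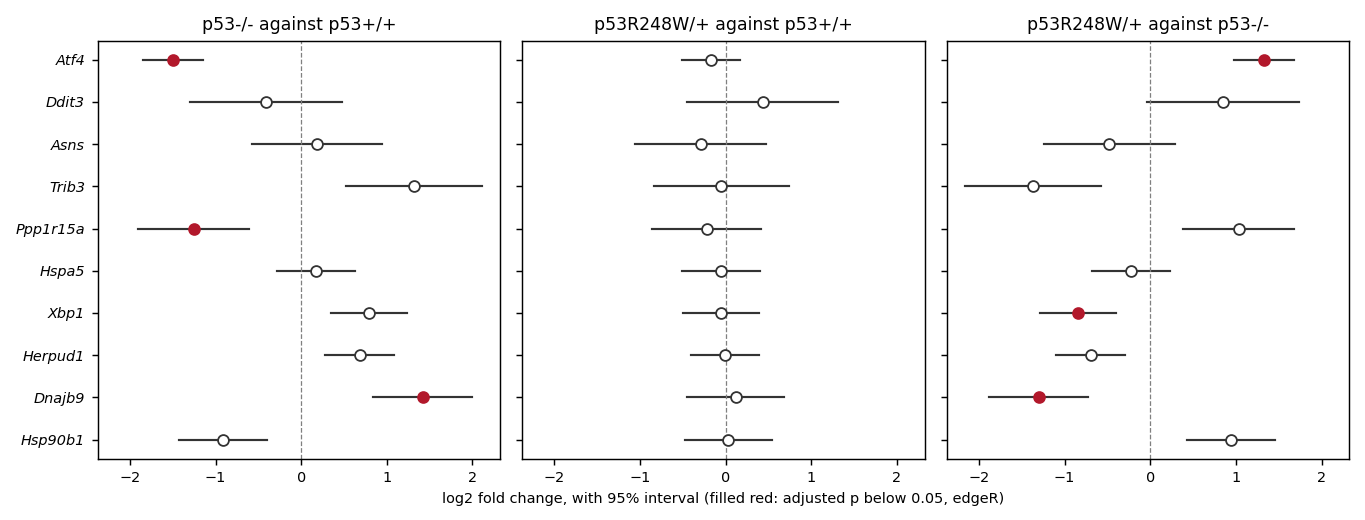
Log2 fold change of each gene in the 3 comparisons, with 95% intervals from edgeR. The x axis is the log2 fold change, rows are genes, and filled red points have an adjusted p below 0.05. Atf4 and Dnajb9 are filled in both comparisons with p53-/- LSKs, and no point is filled in p53R248W/+ against p53+/+.

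Levels can be compared between genes only per length, here as RPKM with the gene lengths in the deposited table. In p53+/+ LSKs Hspa5 had the highest level (306 ± 58.9 RPKM, SD, n = 3), followed by Hsp90b1 (177 ± 46.6), Xbp1 (84.4 ± 11.52), Herpud1 (84.2 ± 8.28), Atf4 (72.6 ± 9.39), and Ppp1r15a (54.5 ± 18.7). Asns (22.7 ± 11.8), Ddit3 (22.3 ± 10.9), Dnajb9 (16.2 ± 5.17), and Trib3 (5.12 ± 2.11) were lower. Xbp1, Herpud1, and Atf4 did not differ beyond their spread, nor did Atf4 and Ppp1r15a, or Asns, Ddit3, and Dnajb9. In p53-/- LSKs the order was Hspa5 (344 ± 21.1 RPKM), Xbp1 (146 ± 7.34), Herpud1 (135 ± 17.0), Hsp90b1 (93.9 ± 9.62), Dnajb9 (43.3 ± 4.10), Asns (25.8 ± 3.05), Atf4 (25.7 ± 2.13), Ppp1r15a (22.9 ± 6.18), Ddit3 (16.7 ± 6.68), and Trib3 (12.8 ± 3.54). Here Xbp1 and Herpud1 were above Hsp90b1. Xbp1 and Herpud1 did not differ beyond their spread, nor did Asns, Atf4, and Ppp1r15a, Ppp1r15a and Ddit3, or Ddit3 and Trib3.

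Some of the genes varied together between libraries of the same genotype. Removing the genotype means leaves 6 degrees of freedom, and replicates 1 and 2 had alike deviations in p53R248W/+ and p53+/+ (r = 0.558 and 0.629 over 9678 genes). Fewer than 9 independent values therefore stand behind each r. The following correlations are of log2 CPM over 9 libraries, which share depth and genotype, and they are given as a description without a p-value. As deviations from the genotype means, Xbp1 went with Herpud1 (Pearson's r = 0.907) and Dnajb9 (0.852), Ddit3 with Trib3 (0.872) and Herpud1 (0.816), and Asns with Hspa5 (0.902). Hsp90b1 went against Ppp1r15a (-0.896) and Ddit3 (-0.836). Atf4, which was lowest in p53-/- libraries, had deviations that went with no gene above 0.534 (Hspa5). Over the 9 libraries without removing the genotype means, Atf4 went against Dnajb9 (-0.907), Xbp1 (-0.843), Herpud1 (-0.837), and Trib3 (-0.831), and with Hsp90b1 (0.83) and Ppp1r15a (0.791).

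**Figure D4:**
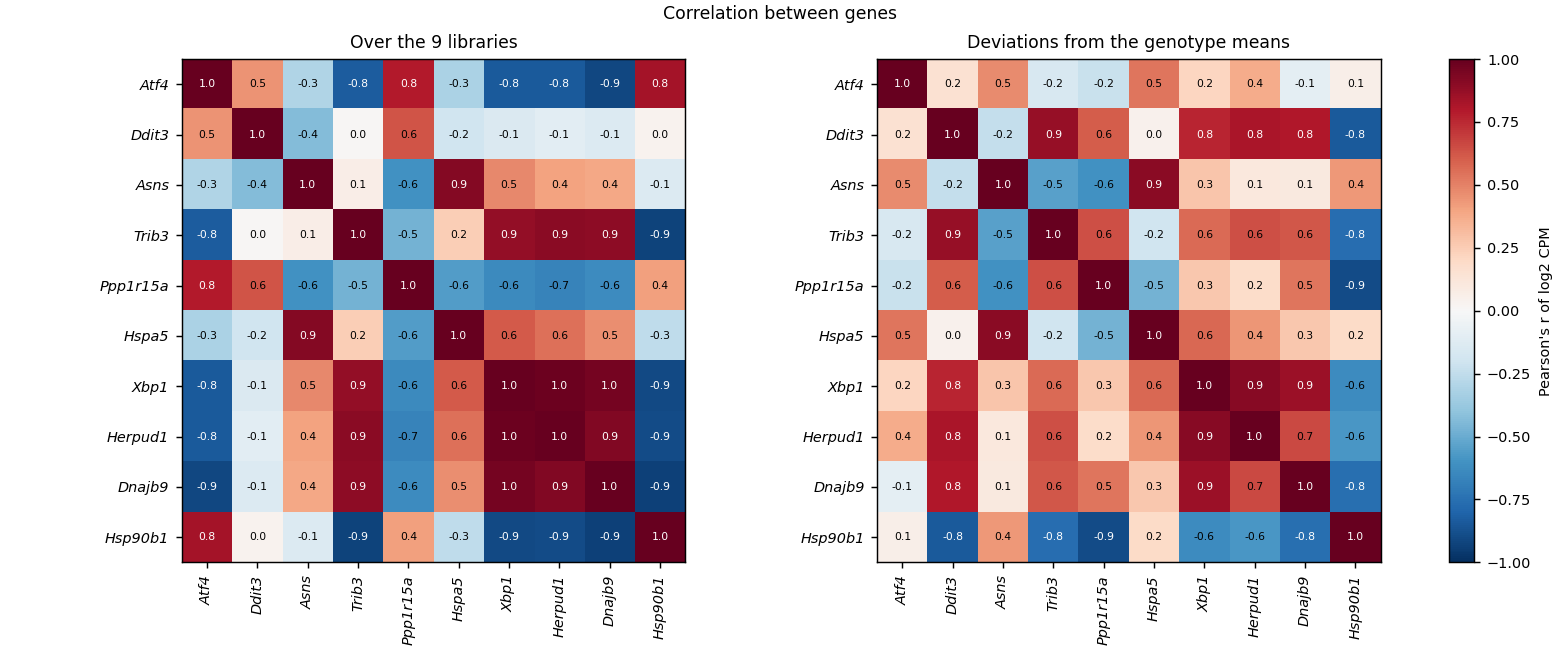
Pearson's r of log2 CPM between each pair of genes over the 9 libraries (left) and of the deviations from the genotype means (right). Both axes list the 10 genes, and color and number give r, rounded to 1 decimal. Xbp1, Herpud1, and Dnajb9 form a block in both panels, while Atf4 goes with Ppp1r15a and with Hsp90b1 in the left panel only.

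The genes outside the 10 whose level was most like the mean of the 5 ER genes (z-scored log2 CPM, 9668 genes ranked over 9 libraries) were Kdelr2, the receptor that returns chaperones to the ER (r = 0.982), Pigm (0.976), a mannosyltransferase of GPI anchor synthesis in the ER, Shq1 (0.971), Gfer (0.969), and Clptm1l (0.967). Those most like the mean of Atf4, Ddit3, Asns, Trib3, and Ppp1r15a were 2210016F16Rik (0.949), 5033406O09Rik (0.932), Gemin8 (0.924), Thoc6 (0.923), and Rnf125 (0.918). Both means join genes that moved in opposite directions, as Hsp90b1 went against Dnajb9 among the ER genes (r = -0.931 over 9 libraries). Likeness to a mean is therefore not likeness to each gene in it, and what it rests on was not tested.

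The rest of the pathway was read in 8 lists with 134 genes tested. In p53-/- against p53+/+ LSKs 2 of the 134 rose and 2 fell in edgeR (2.99%, against 1.25% higher and 2.25% lower of all genes). By DESeq2 15 of the 134 passed (12.3% of all genes) and by limma-voom 2 (2.35% of all genes), so these counts are near the background. The median log2 fold change was 0.0878. Hspa13 (STCH), an HSP70-like protein of microsomes, was read at 33.1 to 41.2 CPM in p53+/+ and at 66.4 to 90.3 CPM in p53-/- libraries, a log2 fold change of 1.18 (adjusted p = 0.0394, edgeR). Derl2, a channel component of ER-associated degradation, was read at 45.2 to 57.2 CPM and at 80.5 to 97.5 CPM, a log2 fold change of 0.79 (adjusted p = 0.0428, edgeR). Both were placed in the list of 24 ER-associated degradation genes, although Hspa13 is HSP70-like and its part in degradation was not examined here. Hspa13 had the largest log2 fold change of this list (1.18). The list had a median of 0.192 and 12 of 24 genes without overlap, 9 of them higher in p53-/- libraries. Of all genes, 31.4% were without overlap in either direction.

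Of the genes that fell, 1 is among 12 of the eIF2 axis and 1 among 17 amino acid and one-carbon targets of ATF4. No pattern by list is read from them. Eif2ak2 (PKR), the eIF2 kinase that senses double-stranded RNA and is also induced by interferon, was read at 31.1, 43.3, and 45.7 CPM in p53+/+ and at 14.9, 15.5, and 19.5 CPM in p53-/- libraries (log2 fold change -1.27, adjusted p = 0.0272, edgeR). Mthfd2, a mitochondrial enzyme of one-carbon metabolism that ATF4 is known to activate, was read at 21.0, 25.1, and 46.1 CPM in p53+/+ and at 14.8, 13.0, and 13.5 CPM in p53-/- libraries (log2 fold change -1.16, adjusted p = 0.0497, edgeR). Neither gene overlapped between these genotypes. Over 19 alternatives Eif2ak2 kept its call in 14, Hspa13 in 13, Derl2 in 10, and Mthfd2 in 9. Leaving out p53+/+ replicate 2 or 3 or any 1 p53-/- library left 0 of the pathway genes past the threshold, while 17 passed without p53R248W/+ replicate 1, 7 without p53+/+ replicate 1, and 2 without p53R248W/+ replicate 2 or 3.

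By list, the amino acid and one-carbon targets of ATF4 had a median log2 fold change of -0.115 over 17 genes in p53-/- against p53+/+ LSKs, and the stress targets of ATF4 and CHOP had 0.0915 over 17 genes. The 12 genes of the eIF2 axis had a median of -0.0472, the 11 sensors and activators of the unfolded protein response -0.0771, and the 25 ER chaperones and folding enzymes -0.0157. Of the 21 genes of ER translocation and vesicle transport, 18 were above 0, with a median of 0.264. Of these 21 genes, 0 passed the threshold in edgeR, 6 had an unadjusted p below 0.05, 3 passed by DESeq2, and 0 by limma-voom, which is near the shares over all genes (23.4% unadjusted, 12.3% by DESeq2, and 2.35% by limma-voom). The 8 genes of the mitochondrial unfolded protein response had a median of -0.123. The range of summed levels of the chaperone list was 5697 to 6664 CPM in p53+/+, 5045 to 7703 in p53R248W/+, and 5714 to 6522 in p53-/- libraries. That of the translocation list was 3759 to 4256 CPM in p53+/+, 3360 to 5081 in p53R248W/+, and 4836 to 5647 in p53-/- libraries. The translocation sums of p53-/- libraries were thus above those of p53+/+ and overlapped those of p53R248W/+ libraries.

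In p53R248W/+ against p53+/+ LSKs 0 of the 134 genes passed in edgeR, 0 had an unadjusted p below 0.05, and 0 passed by DESeq2 or limma-voom, with a median of -0.0199. The 4 genes with the smallest p-values were Gpt2 (log2 fold change -0.48), Creb3l2 (-0.64), Lonp1 (-0.41), and Bbc3 (-0.44), each with an adjusted p = 1 (edgeR). Gpt2 is an alanine transaminase, Creb3l2 an ER-bound transcription factor, Lonp1 a mitochondrial protease, and Bbc3 (PUMA) a p53 target that promotes apoptosis. In p53R248W/+ against p53-/- LSKs 2 of the 134 genes were higher and 2 lower in edgeR (2.99%). Of all genes 2.34% were higher and 1.1% lower, so this count is near the background. Eif2ak2 (1.24, adjusted p = 0.0281, edgeR) and Sec63 (0.87, adjusted p = 0.0435, edgeR), a translocon cochaperone, were higher. Creb3l2 (-1.47, adjusted p = 0.0409, edgeR) and Derl1 (-0.71, adjusted p = 0.0425, edgeR), another degradation channel component, were lower. Over 18 alternatives these calls were kept in 11 for Eif2ak2, 8 for Sec63, 9 for Creb3l2, and 9 for Derl1.

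**Figure D5:**
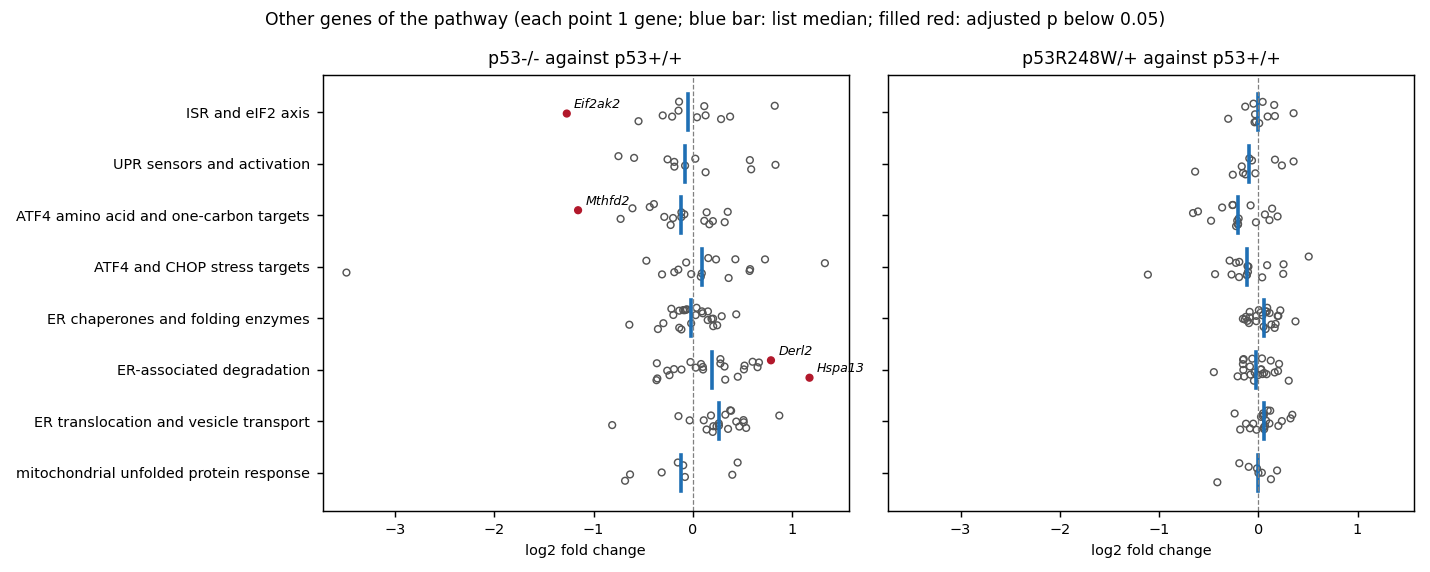
Log2 fold changes of the other pathway genes by list, in p53-/- and in p53R248W/+ against p53+/+ LSKs. Each point is a gene, the x axis is the log2 fold change, the blue bar is the median of the list, and filled red points have an adjusted p below 0.05 (edgeR). In the left panel 4 genes are filled and the points spread more widely than in the right panel, where none is filled.

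Other lists of genes were read beside these values, and their part in them was not tested. Correlations with a list use the mean log2 CPM of its genes, in which each gene has the same weight, and not the summed level. In p53-/- against p53+/+ LSKs, the shares of all genes to set beside the counts are 1.25% higher and 2.25% lower in edgeR, 12.3% by DESeq2, 2.35% by limma-voom, and 23.4% with an unadjusted p below 0.05. Immediate early genes are known for fast induction by growth factors and stress. The summed level of 15 immediate early genes was 1851 to 6062 CPM in p53+/+, 1997 to 8119 in p53R248W/+, and 1115 to 1535 in p53-/- libraries, and 15 of 15 had a negative log2 fold change in p53-/- against p53+/+ LSKs. Of them 3 passed the threshold in edgeR, 7 by DESeq2, and 2 by limma-voom. Within genotypes the deviations of Trib3 (r = 0.903), Ddit3 (0.81), and Ppp1r15a (0.76) went with this list and those of Hsp90b1 against it (-0.902), while Xbp1 (0.67), Herpud1 (0.668), and Dnajb9 (0.673) were between them and Atf4 had an r of -0.168 (9 libraries, as a description). The summed level of 10 cytosolic heat shock genes was 4195 to 6629 CPM in p53+/+, 4940 to 5304 in p53R248W/+, and 3624 to 5345 in p53-/- libraries. These ranges overlapped, but in p53-/- against p53+/+ LSKs 4 of the 10 genes had a positive log2 fold change and 6 a negative one. In edgeR 2 of the 10 were lower past the threshold, 5 passed by DESeq2, 1 by limma-voom, and 5 had an unadjusted p below 0.05. Within genotypes Dnajb9 went against the mean log2 CPM of this list (r = -0.888) and Hsp90b1 with it (0.725).

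The 19 cell cycle genes summed to 5389 to 6826 CPM in p53+/+, 5422 to 6135 in p53R248W/+, and 3844 to 5518 in p53-/- libraries, and 19 of 19 had a negative log2 fold change in p53-/- against p53+/+ LSKs, 2 of them past the threshold in edgeR. The sums of p53+/+ and p53-/- libraries overlapped. The mean log2 CPM of the list did not, at 7.67 to 7.95 in p53+/+ and 6.85 to 7.55 in p53-/- libraries. Of the 19 genes, 10 had an unadjusted p below 0.05 (23.4% of all genes), 3 passed by DESeq2 (12.3%), and 1 by limma-voom (2.35%). Within genotypes Ppp1r15a went against the mean log2 CPM of this list (r = -0.791). The 9 LSK markers summed to 3389 to 4433 CPM in p53+/+, 3639 to 4270 in p53R248W/+, and 4504 to 5071 in p53-/- libraries, which did not overlap the others. Of these markers 8 of 9 had a positive log2 fold change in p53-/- against p53+/+ LSKs. In edgeR 1 passed the threshold (1.25% of all genes were higher) and by DESeq2 4 passed (12.3% of all genes). The 9 granulocyte markers summed to 2286 to 7108 CPM in p53+/+, 3810 to 8830 in p53R248W/+, and 1530 to 2027 in p53-/- libraries. All 9 had a negative log2 fold change in p53-/- against p53+/+ LSKs, and 0 of them passed in edgeR. Of the 9, 7 had an unadjusted p below 0.05 (23.4% of all genes). By DESeq2 2 passed (12.3% of all genes), and 0 by limma-voom (2.35%). The B and plasma cell markers, of which plasma cells are known for high Xbp1, were summed by library. The sums were 1220, 252.9, and 250.3 CPM in p53+/+, 2189, 248.3, and 363.1 in p53R248W/+, and 990, 844, and 529 in p53-/- libraries. In replicate 1 of p53+/+ and p53R248W/+, where Xbp1 was also highest of its genotype, most of the sum was Jchain (931 and 1931 CPM). Of these markers 4 of 9 had a positive log2 fold change in p53-/- against p53+/+ LSKs. A part of such cells in the Xbp1 values was not tested.

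Atf4 kept its direction and an adjusted p below 0.05 in all alternatives run for p53-/- against p53+/+ and for p53R248W/+ against p53-/- LSKs. Its log2 fold change ran from -1.57 to -1.39 in the first over 19 alternatives (adjusted p up to 0.0194, edgeR, DESeq2, and limma-voom) and from 1.25 to 1.44 in the other over 18 (adjusted p up to 0.0212). With only the libraries free of Y-linked reads, Atf4, Ppp1r15a, and Dnajb9 passed in p53-/- against p53+/+ LSKs, which is a fit chosen after seeing the data.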

How the data were processed

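RNA from LSKs was sequenced in 9 libraries, 3 per genotype. The labels name a SMART-Seq kit, whereas the methods describe oligo(dT) selection and random hexamers. The deposited table holds the raw counts of reads on each gene as the authors made them, in whole numbers. The submitters' processing notes name STAR 2.5.2b, featureCounts of Subread 1.5.0, edgeR, and mm10. How reads of the humanized p53 allele were treated is not given in the sources used here. The gene lengths deposited by the authors, on a scale of bases, were used for RPKM only. Columns of the authors' own comparisons in the same table (fold changes and significance values) were not used, and the 2 H3K27me3 ChIP samples were not analysed here.

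Totals per library were 18021375 to 29750702 counts, so that Trib3, the gene with the fewest reads among the 10, rested on 100 to 765 counts. Counts were fitted with edgeR 4.0.16 (R 4.3.3, TMM factors, filterByExpr by genotype, 1 quasi-likelihood fit to 9 libraries) and p-values were adjusted by Benjamini-Hochberg over 12625 genes. Log2 CPM used a prior count of 2. Also tried were limma-voom (limma 3.58.1), DESeq2 1.42.0, other size factors, other filters, the replicate number as a block, a covariate of Y-linked genes, 6-library fits, and leaving out each library. Named genes were the 10 genes, up to 2 per direction and list among pathway genes past the threshold (the 4 with the smallest p where fewer than 4 passed), and 5 per group with the most alike levels. The 10 genes and the lists were chosen with earlier results of these data known. Promoter sequences were read from RefSeq (GRCm38.p6).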

Additional observations from a re-analysis of the deposited data

How the results depend on the processing

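For p53R248W/+ against p53+/+, 0 of the 10 genes and 0 pathway genes passed in edgeR, DESeq2, limma-voom, or any other alternative run. For p53-/- against p53+/+, the count of the 10 genes that passed, 3 as reported, was 7 by DESeq2, 5 with at least 10 counts in every library, 7 with the replicate block, and 7 in the fit to 6 libraries, and it ranged from 1 to 7 when 1 library was left out. The pathway count, 4 as reported, was 15 by DESeq2, 2 by limma-voom, 7 with the strict filter, 8 with the replicate block, 9 in the fit to 6 libraries, and 0 to 17 with 1 library left out. With only libraries free of Y-linked reads, chosen after seeing the data, 2 pathway genes passed. For p53R248W/+ against p53-/-, the 3 genes became 7 by DESeq2, 6 with the replicate block, 1 with the Y-linked covariate, and 1 to 6 with 1 library left out. The 4 pathway genes became 13 by DESeq2, 2 with the covariate, 0 in the fit to 6 libraries, and 0 to 15 with 1 library left out. Over all genes, calls for p53-/- against p53+/+ ran from 37 without p53+/+ replicate 3 to 1485 without p53R248W/+ replicate 1, against 442, and DESeq2 gave 1552, limma-voom 297, the replicate block 882, and the fit to 6 libraries 894. For p53R248W/+ against p53-/- they ran from 77 without p53R248W/+ replicate 3 to 1559 without its replicate 1, against 434, with 1325 by DESeq2, 672 with the block, 208 in the fit to 6 libraries, and 162 with the covariate. The causes were not tested.

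Sign changes were seen only in values that had not passed the threshold. In p53-/- against p53+/+ Asns was at -0.037 with the Y-linked covariate and -0.026 in the fit without Y-linked reads, and with 1 library left out Asns ran from -0.0255 to 0.70 and Ddit3 from -0.79 to 0.057. In p53R248W/+ against p53+/+ Trib3 was at 0.010 by limma-voom and at 0.014 with the replicate block, and with the covariate Hspa5 was at 0.062, Xbp1 at 0.071, Herpud1 at 0.084, and Hsp90b1 at -0.082. With 1 library left out, the log2 fold changes of that comparison ran from -0.029 to 0.90 for Ddit3, -0.50 to 0.22 for Asns, -0.36 to 0.19 for Trib3, -0.43 to 0.070 for Ppp1r15a, -0.28 to 0.12 for Hspa5, -0.32 to 0.077 for Xbp1, -0.20 to 0.080 for Herpud1, -0.17 to 0.41 for Dnajb9, and -0.20 to 0.20 for Hsp90b1. In p53R248W/+ against p53-/- Hspa5 was at 0.046 with the covariate. Same-numbered libraries had deviations from the genotype means with r = 0.558, 0.629, and -0.0362 between p53R248W/+ and p53+/+. Between p53-/- and p53+/+ same-numbered libraries had an r of at most 0.000554. Replicates 1 and 2 of p53R248W/+ and p53+/+ with unlike numbers had r = -0.601 and -0.625. Deviations from a genotype mean cancel out within the genotype, so these negative values follow in part from the positive ones. That replicates 1 and 2 varied alike by number therefore rests on r = 0.558 and 0.629. The tags of p53R248W/+ and p53+/+ libraries in the labels are also alike by number, while p53-/- tags have another form. Not every library correlated best with its own number, so the numbers were not taken as pairs and the replicate block is an alternative only.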
